A study of Homo sapiens with 16 samples.

Results

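The comparison set the T47D-MTVL line that overexpresses HA-tagged K26A H1.4 (K26, 2 arrays) against the untreated random-hairpin line (Ctrl, 2 arrays). These 4 arrays were chosen by their labels, out of 16 in 8 groups of 2. T47D is a luminal breast cancer cell line, and T47D-MTVL carries an integrated luciferase gene driven by the MMTV promoter. Ctrl cells carry a doxycycline-inducible vector with a random hairpin, together with a KRAB-Tet repressor and a red fluorescent protein, and were not given doxycycline. K26 cells carry the HA-tagged H1.4 in which alanine replaces lysine at K26, and were likewise untreated. Whether K26 cells also carry the repressor, which promoter drives the H1.4, and whether the line is a single clone are not stated in the labels. Further untreated lines were used to place the differences: WT, which overexpresses HA-tagged wild type H1.4, sh225, with an uninduced hairpin against multiple H1 variants, and sh120, with an uninduced hairpin against H1.4. No doxycycline-treated array has its own level given below or enters a group mean compared below. Those arrays still bear on the levels and differences, since quantile normalization and the choice of the brightest probe per symbol used all 16 arrays. They are also part of the fit that gives the SEs and p-values, of the probe filter and of detection counts over 16 arrays. Nothing in the labels states that the 2 replicates of a line came from different cultures, so p-values rest on variation between arrays that could be technical alone.

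Linker histone H1 binds the nucleosome where DNA enters and leaves and favours compact chromatin. H1.4 is an abundant variant whose K26 is methylated by EZH2 and by G9a (EHMT2), bound when methylated by HP1 proteins (CBX1, CBX3, CBX5) and by L3MBTL1, and demethylated by KDM4 enzymes. Alanine at this position can be neither methylated nor acetylated.

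Levels are background-corrected, quantile-normalized log2 intensities, and differences are log2 differences of group means with the standard error (SE) from the fit. A gene is called, and termed higher or lower, at a limma p below 0.05 after Benjamini-Hochberg adjustment over all 9654 items tested. Each K26 array detected 9895 and 10286 probes, and each Ctrl array 10043 and 10130. K26 differs from Ctrl in vector, culture and label set: the sample descriptions number the arrays 1 to 8 in each of 2 sets, Ctrl is in the first set and K26, WT and sh225 are in the second. For K26 against Ctrl, set and line cannot be told apart. K26 against sh225 stays within the second set. Raw array medians ran from 78.0 to 89.8 in the first set and from 97.65 to 105.4 in the second. Untreated sh225 against Ctrl, which crosses the sets, gave 44 calls, 0.456% of items, and untreated sh120 against Ctrl gave 2, 0.0207%. The treatment protocol describes a serum-free step for growth arrest, but does not state whether Ctrl or K26 cells went through it.

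K26 against Ctrl gave 4959 called items, 51.4% of those tested. Of these, 2333 were higher in K26 (24.2%) and 2626 were lower (27.2%). With both groups' array medians scaled instead of quantile-normalized, the split was 2927 higher and 2001 lower. At least 2-fold differences were fewer, with 546 items higher (5.66%) and 516 lower (5.34%). K26 against sh225 gave 5302 calls, 54.9% of items, with 2526 higher (26.2%) and 2776 lower (28.8%). K26 against WT, which compares lines of the same kind, gave 2209 calls (22.9%), of which 974 were higher in K26 (10.1%) and 1235 lower (12.8%). In that comparison the substitution cannot be told apart from other differences between the lines or their cultures. WT against Ctrl gave 3071 calls (31.8%), 1572 higher (16.3%) and 1499 lower (15.5%). Both K26 arrays stood above both Ctrl arrays for 35.5% of items and below both for 39.8%, the share against which any statement of no overlap is to be read. The comparisons share arrays, so they are given side by side and not correlated. Correlations between arrays over all items were 0.993 for the K26 pair, 0.991 for the Ctrl pair, 0.938 to 0.941 between K26 and Ctrl, and 0.974 to 0.980 between K26 and WT. Since more than 50% of items were called, a gene list is read below against these shares, and in bulk RNA fewer cells of a type cannot be told apart from less RNA per cell.

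The overexpressed gene came first. The H1-4 probe was not detected on either Ctrl array (4.64 and 4.55) and was detected on both K26 arrays (7.80 and 7.56) and both WT arrays (8.00 and 8.02). H1-4 was at least 3.43-fold higher in K26 than in Ctrl (adjusted p = 8.54e-11 in limma), and K26 minus WT was −0.33 (SE 0.17, adjusted p = 0.172), which is not called. The probe does not tell the introduced from the endogenous transcript, and the substitution itself is not read by it.

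A second linker histone was higher as well. H1-2, which encodes H1.2, another abundant variant, stood at 8.36 and 8.67 in Ctrl and at 11.17 and 11.21 in K26. All K26 values lay above all Ctrl values, and the difference was 2.68 (SE 0.15, 6.39-fold, adjusted p = 6.41e-11). WT lay between them at 10.04 and 9.93, and H1-2 was also higher in K26 than in WT, by 1.20 (adjusted p = 1.61e-05). H1-10, the replication-independent variant H1.X, was higher too, moving from 9.46 and 8.98 to 9.92 and 10.01 (difference 0.74, adjusted p = 0.000237). Probes for H1-1, H1-3, H1-5, H1-6, H1-7 and H1-8 were not detected on any of the 16 arrays.

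Replication-dependent core histones, which package newly made DNA, had the largest share of higher members among lists with more than 3 genes tested. Of 62 genes in the list, 53 have a named probe and 20 passed the filter, which a gene can pass through K26 alone. Of these 20, 18 were higher in K26 than in Ctrl and 1 was lower, with a median difference of 1.43 against −0.03 over all items, and the median was also 1.43 over the 11 genes detected on all 16 arrays. Against sh225, 18 were higher and 0 lower. Against WT, 17 were higher and 1 lower, and WT against Ctrl had 15 higher and 0 lower. In 18 of the 20, both K26 arrays stood above all 8 untreated Ctrl, sh120, sh225 and WT arrays, a position that 16.9% of all items held. H4C8, an H4 gene, gave 8.45 on both Ctrl arrays, 9.45 and 9.26 in WT, and 11.04 and 11.07 in K26. The K26 values lay 1.59 above the nearest of the 8 other arrays, and K26 minus Ctrl was 2.60 (SE 0.13, adjusted p = 1.73e-11). H2AC8, an H2A gene, was not detected in Ctrl (5.59 and 5.81) and reached 7.47 and 7.60 in WT and 9.05 and 9.0 in K26. It was at least 8.71-fold higher than in Ctrl (adjusted p = 1.32e-09). H2BC8, the H2B gene that neighbours it head to head, moved from 7.05 and 6.87 to 9.05 and 9.15 (difference 2.14, adjusted p = 9.7e-10). H4C5 was not detected in Ctrl (5.28 and 5.17), stood at 7.92 and 7.68 in K26, and was at least 3.73-fold higher (adjusted p = 3.88e-09). H3C10, an H3 gene, gave 5.89 and 6.19 in Ctrl against 8.12 and 7.82 in K26, with no overlap. Near-identical histone genes can share probe signal, so the count of 18 may hold fewer independent transcripts. Messages of these genes end in a stem-loop in place of the usual poly(A) tail. How the cDNA was primed is not given here, and whether the probes read messages with and without a tail alike was not tested. A higher signal therefore need not mean more total histone message.

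2 core histone genes departed from this. H4C3 was lower in K26, at 12.36 and 12.11 against 12.97 and 13 in Ctrl (difference −0.75, adjusted p = 0.000362), but not against sh225 (adjusted p = 0.0561). H2BC11 was at 8.20 and 8.17 in K26 and at 8.08 and 8.15 in Ctrl, and was not called (adjusted p = 0.66). Among factors that process core histone messages, SLBP, the stem-loop binding protein, was higher, at 8.56 and 9.26 against 7.79 and 8.28 (difference 0.88, adjusted p = 0.00191). NPAT, the coactivator of histone gene transcription, was at least 1.62-fold higher (adjusted p = 0.00119). Without K26 replicate 2, SLBP was not called (adjusted p = 0.0685). CABIN1, of a histone chaperone complex for H3.3, was lower (difference −0.87). ASF1A, a chaperone of H3 and H4, was lower than in Ctrl (−0.70) but not called against sh225 (−0.26, adjusted p = 0.222), against sh120 or without Ctrl replicate 1. Of the 19 genes of this processing and chaperone list, 3 were higher and 7 lower.

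**Figure D1:**
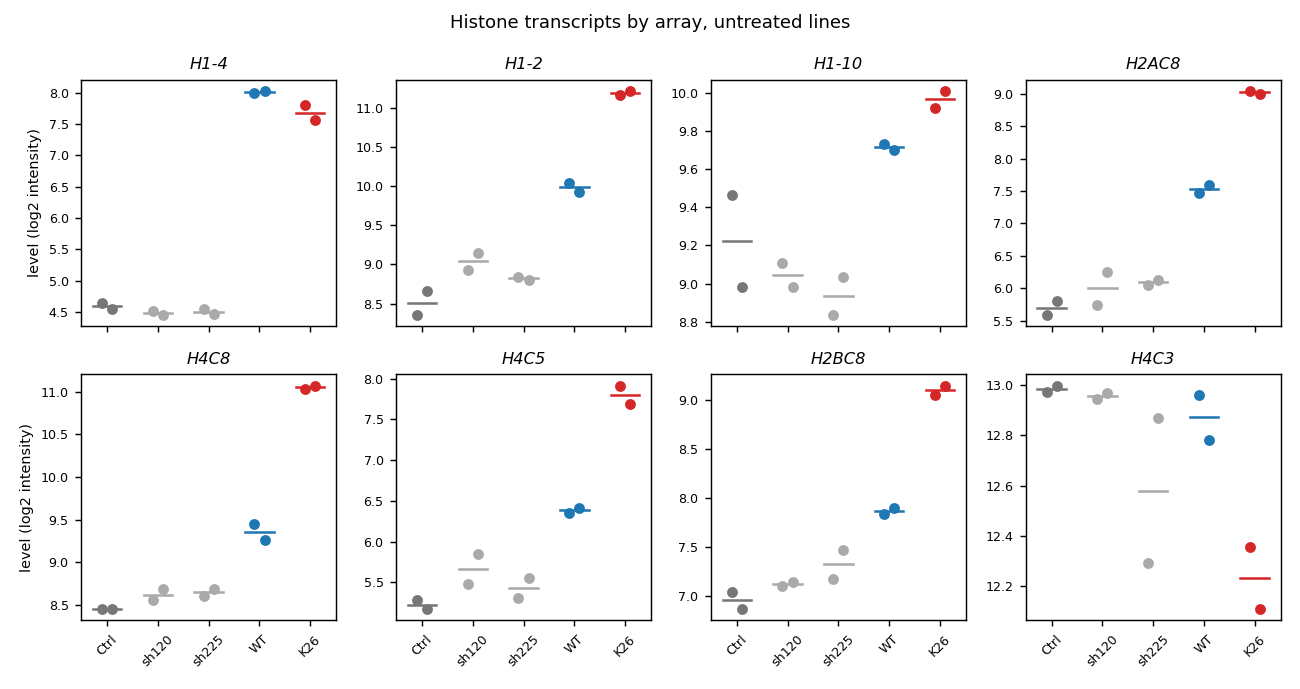
Levels (log2 intensity) of 8 histone genes on each array of the untreated lines, with a point per array and a bar at the group mean of 2 arrays. H1-2, H4C8, H2AC8, H4C5 and H2BC8 are highest in K26 with WT next, H1-4 is about as high in WT as in K26, and H4C3 has its lowest mean in K26.

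Promoter windows are shown for 2 H1 and 2 H4 genes that were called higher. The H1-4 window is that of the endogenous gene. The promoter of the introduced H1.4 is not stated and the probe does not tell the transcripts apart, so the H1-4 level may not come from this window. The window of H1-10, the third H1 gene called higher, is not shown, since it holds neither of the H1 gene motifs searched. They are the 150 bases before the RefSeq start on GRCh38.p14, read on the gene's strand. Capitals mark AAACACA, the H1 box, and CCAAT in the H1 genes, and GGTCCG, from the H4 promoter element, in the H4 genes, each searched on both strands. H1-2 lies at chr6:26056471-26056620 on the minus strand, H1-4 at chr6:26156179-26156328 on the plus strand, H4C8 at chr6:26285535-26285684 on the minus strand and H4C5 at chr6:26204460-26204609 on the plus strand.
H1-2: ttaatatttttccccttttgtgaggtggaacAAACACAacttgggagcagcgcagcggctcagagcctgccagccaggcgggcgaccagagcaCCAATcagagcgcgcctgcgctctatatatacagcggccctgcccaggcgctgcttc
H1-4: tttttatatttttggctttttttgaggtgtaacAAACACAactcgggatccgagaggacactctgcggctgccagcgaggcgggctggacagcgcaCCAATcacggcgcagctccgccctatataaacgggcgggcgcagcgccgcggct
H4C8: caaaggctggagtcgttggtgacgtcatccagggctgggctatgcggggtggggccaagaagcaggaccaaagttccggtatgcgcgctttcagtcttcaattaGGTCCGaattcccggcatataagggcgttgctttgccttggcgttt
H4C5: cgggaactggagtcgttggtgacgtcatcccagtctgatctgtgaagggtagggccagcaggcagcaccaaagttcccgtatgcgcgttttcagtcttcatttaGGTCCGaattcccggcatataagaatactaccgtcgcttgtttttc
AAACACA starts at −119 in H1-2 and at −117 in H1-4, and CCAAT at −57 and −54, while GGTCCG starts at −46 in both H4 genes. Windows of the same length hold AAACACA in 2.71% of 35116 RefSeq promoters, CCAAT in 23.5% and GGTCCG in 5.96%. The 3 H4 genes tested all hold GGTCCG, H4C3 included, whose level was lower. A match is a description of the letters only.

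DNA replication and mitosis genes were mostly lower in the same K26 arrays. Of 43 tested genes of G1/S and DNA replication, 28 were lower and 2 higher (median difference −0.52), and 33 were lower and 0 higher against WT. PRIM1, the small primase subunit, stood at 9.66 and 9.82 in Ctrl, 9.49 and 9.63 in WT, and 8.49 and 8.46 in K26. K26 lay below both other lines on each array, with a difference of −1.26 from Ctrl (SE 0.11, adjusted p = 4.64e-08) and −1.09 from WT (adjusted p = 3.78e-06). RRM2, the small subunit of ribonucleotide reductase, which makes deoxynucleotides, fell from 7.66 and 7.80 to 6.81 and 6.69 (difference −0.98), and TK1, thymidine kinase, from 10.35 and 10.38 to 9.46 and 9.46 (difference −0.90). The helicase subunits MCM2 and MCM5 were lower, with differences of −0.94 and −1.13.

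In the G2/M and mitosis list, 49 of 62 tested genes were lower and 2 higher (median difference −0.68). Against sh225, 41 were lower, and against WT 32 were lower and 1 higher. CENPF, a kinetochore protein, gave 9.46 and 9.20 in Ctrl, 8.67 and 8.47 in WT and 7.85 and 7.81 in K26. The 3 lines did not overlap, and K26 minus Ctrl was −1.50 (SE 0.14, adjusted p = 5.47e-08). KIF20A, a cytokinesis kinesin, was lower (difference −1.42), and CCNB1, cyclin B1, fell from 8.00 and 7.91 to 6.76 and 6.88 (difference −1.13, adjusted p = 2.66e-05). In WT, CCNB1 stood at 6.68 and 6.94, and K26 minus WT was 0.01 (adjusted p = 0.969). CDK1, the kinase that cyclin B1 activates, was not called (difference 0.13, adjusted p = 0.439). Of 20 DNA repair genes, 11 were lower and 0 higher, among them BLM, a helicase of recombination (difference −1.23), and FANCG, of the Fanconi anaemia core complex (difference −0.90). Thus 18 of 20 core histone genes were higher on the arrays on which most S-phase and mitosis genes were lower. Whether the lower replication and mitosis genes bear on the histone values was not tested.

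**Figure D2:**
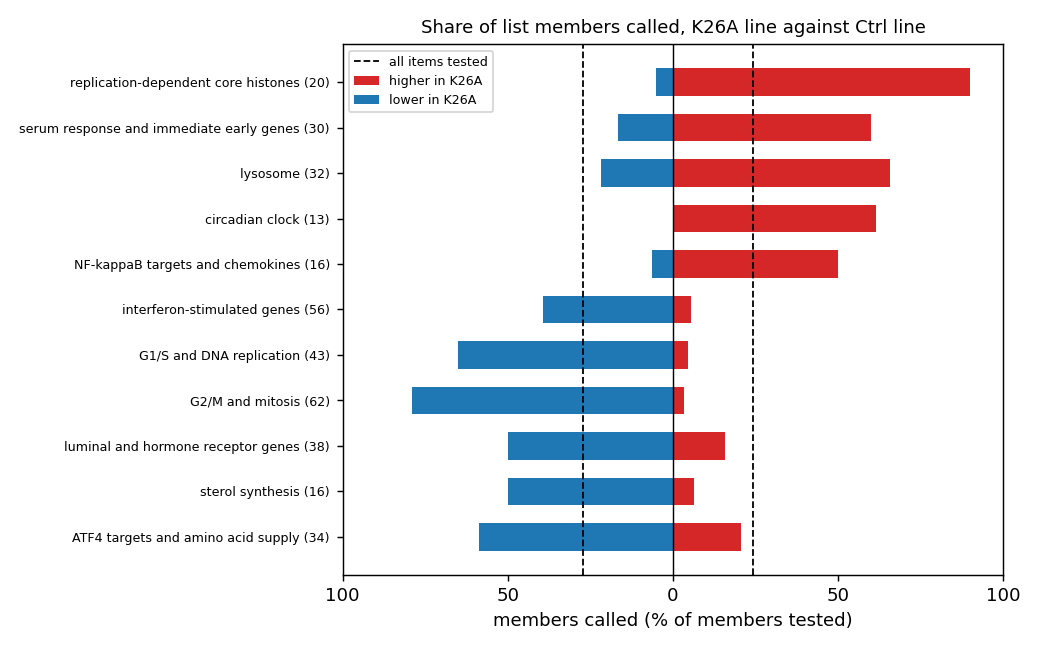
Share of tested members called higher (red, right) and lower (blue, left) in K26 against Ctrl for 11 gene lists, in percent of members tested, whose number stands in brackets. Dashed lines mark the shares over all 9654 items, 24.2% higher and 27.2% lower; core histones reach 90% higher and the G2/M list 79% lower.

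Genes of interferon response separated the K26A line from the wild type line. Of 56 interferon-stimulated genes tested, 22 were lower in K26 than in Ctrl and 3 higher (median difference −0.28). Against WT, 26 were lower and 0 higher (median −0.42), while WT against Ctrl had 20 higher and 6 lower (median 0.19). MX1, an antiviral GTPase, stood at 10.22 and 10.35 in Ctrl, 11.07 and 11 in WT and 9.31 and 9.24 in K26. It was higher than Ctrl in WT (0.75, adjusted p = 1.09e-05) and lower than Ctrl in K26 (−1.01, adjusted p = 1.07e-07), and K26 minus WT was −1.76 (SE 0.10, adjusted p = 2.06e-09). IFIT1, which binds foreign RNA ends, was at 7.07 and 6.98 in Ctrl, 7.66 and 7.77 in WT and 6.17 and 6.07 in K26. IFITM1, a membrane protein that limits virus entry, followed the same order, at 8.23 and 8.38, 9.15 and 8.72, and 7.58 and 7.39. For both genes the 3 lines did not overlap, and K26 minus WT was −1.60 for IFIT1 (adjusted p = 2.67e-06) and −1.45 for IFITM1 (adjusted p = 1.22e-06).

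IFI27 had the widest gap of the 4 that were called in opposite directions, at 8.46 and 8.30 in WT against 6.41 and 6.25 in K26 (K26 minus WT −2.04, adjusted p = 3.57e-07). Its difference from Ctrl was small (−0.52, adjusted p = 0.0169), and against untreated sh120 it was 0.16 and not called. The call against Ctrl did not hold in 5 of 12 alternatives, among them sh120 and the fits without K26 replicate 2 or Ctrl replicate 2. IFI35 and LGALS3BP were lower in both overexpression lines: IFI35 went from 10.11 and 10.01 in Ctrl to 9.46 and 9.28 in WT and 8.50 and 8.53 in K26 (K26 minus Ctrl −1.54, adjusted p = 2.24e-09). DHX58, an RNA sensor also named LGP2, was lower (−1.11), and STING1, the adaptor for cytosolic DNA sensing, was at least 2.37-fold lower and not detected in K26 (5.17 and 5.44 against 7.07 and 7.22). OAS2 gave a difference of −1.62, but its probe identifier is uncertain between the deposited tables and its 3 other probes gave −1.48 to −0.70. Some members went up: CXCL10, a chemokine, from 6.02 and 6.09 to 7.36 and 7.31 (difference 1.28), and IRF1, the transcription factor, by 0.93. ISG15 was not called (difference −0.36, adjusted p = 0.157). Antigen presentation genes, which interferon gamma also induces, did not follow, with 8 of 18 higher and 3 lower, B2M by 0.87 and HLA-DRA by 1.20 among the higher.

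Immediate early genes, the transcription factors and feedback regulators that growth factors or stress switch on within minutes, were mostly higher. Of 30 tested, 18 were higher and 5 lower (median difference 0.72). JUN rose from 8.60 and 8.45 in Ctrl to 10.02 and 10.06 in WT and 10.58 and 10.65 in K26, without overlap of the lines (K26 minus Ctrl 2.09, SE 0.12, adjusted p = 1.02e-10). FOSB and FOS, its partners in AP-1, were not detected in Ctrl and were at least 3.49-fold and 2.51-fold higher. DUSP1, a MAP kinase phosphatase, went from 7.92 and 7.97 to 10.02 and 10.00 (difference 2.07), and ZFP36, which marks short-lived messages for decay, from 8.27 and 8.56 to 10.47 and 10.12 (difference 1.88). MYC was among the 5 that were lower, at 6.72 and 7.27 against 8.15 and 7.84 (difference −1.0, adjusted p = 0.000728). In the NF-kappaB and chemokine list 8 of 16 were higher and 1 lower. CXCL8, interleukin 8, was not detected in Ctrl (5.41 and 5.51), stood at 6.97 and 6.86 in WT and 8.13 and 8.10 in K26, and was at least 4.64-fold higher than in Ctrl (adjusted p = 3.36e-10). CCL2 was at least 1.6-fold higher, and NFKB1, a subunit of the factor, was higher by 0.60.

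Luminal and hormone receptor genes, a list of receptors, lineage factors, keratins and other luminal markers, were more often lower. Of 38 tested, 19 were lower and 6 higher (median difference −0.35). ESR1, the oestrogen receptor, fell from 10.69 and 10.29 to 9.43 and 9.51 (difference −1.02, SE 0.16, adjusted p = 3.11e-05). PGR, the progesterone receptor, stood at 9.93 and 9.73 in Ctrl, 8.53 and 8.70 in WT and 8.06 and 8.10 in K26 (K26 minus Ctrl −1.75, adjusted p = 2.29e-09). GREB1, a target of the oestrogen receptor, was lower (−1.41) and so was TFF3, a secreted trefoil peptide (−1.28), and neither was called between K26 and WT. IGFBP4, a binding protein of insulin-like growth factors, went from 12.33 and 11.60 to 9.67 and 9.95 (difference −2.16). PRLR, the prolactin receptor, was lower than in Ctrl (−1.11) and lower than in WT (−0.78). The lineage factors moved less: FOXA1 was higher by 0.23 (adjusted p = 0.0336), and GATA3 gave −0.20 (adjusted p = 0.207). FOXA1 lost its call in 4 of 13 alternatives, among them without K26 replicate 2 or either Ctrl replicate. KRT8 was lower (−0.91), and ELF3, an epithelial ETS factor, was higher by 1.51.

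Defining markers of the line, among them KRT8, KRT19, GATA3, FOXA1, EPCAM and CDH1, were detected on both arrays of both groups, and KRT18 on 1 of 2 K26 arrays. The summed linear level over all 61 probes of the luminal list was 100501 and 102458 on the K26 arrays and 141174 and 138446 on the Ctrl arrays. Few fibroblast, leukocyte or endothelial markers were detected, and 2 of 13 leukocyte genes passed the filter. Of 9 basal markers with a probe, 5 were detected on both arrays of both groups. The sums for these lists also run over all their probes, detected or not, so probes near background add to them. All 22 leukocyte probes summed to 888 and 844 in K26 and 666 and 681 in Ctrl. CD14, 1 of the 2 leukocyte genes that passed, was detected in K26 and not in Ctrl (7.77 and 7.44 against 4.85 and 4.92, at least 3.26-fold higher), while PTPRC was not detected. Fibroblast markers summed to 2108 and 2005 in K26 and 2433 and 2560 in Ctrl, endothelial markers to 405 and 416 against 415 and 411, and basal markers to 2069 and 2092 against 2100 and 2059.

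Metallothioneins, small proteins that bind zinc and copper and whose genes zinc switches on through MTF1, were lower wherever called. Of 7 genes of the list tested, 4 were lower and 0 higher. MT1X stood at 10.12 and 10.07 in Ctrl, 10.33 and 10.51 in sh225, 6.53 and 6.60 in WT and 7.33 and 7.06 in K26. Both overexpression lines lay far below both hairpin lines, K26 minus Ctrl was −2.90 (SE 0.12, adjusted p = 1.2e-12), and K26 was above WT by 0.63 (adjusted p = 0.00104). MT2A fell from 10.54 and 10.71 to 9.16 and 8.99 (difference −1.55) and MT1F from 9.23 and 9.27 to 7.33 and 7.16 (difference −2.00). SLC30A1, a zinc exporter that MTF1 also controls, fell from 7.28 and 7.5 to 5.75 and 6.22 (difference −1.41) and was lower still in WT (4.89 and 5.12). MTF1 itself was not called (difference −0.09, adjusted p = 0.684). The promoter windows of MT1X, chr16:56682320-56682469, and MT2A, chr16:56608434-56608583, both on the plus strand of GRCh38.p14 (RefSeq), are shown with matches to TGCACNC or TGCGCNC, the core to which MTF1 binds, in capitals on either strand.
MT1X: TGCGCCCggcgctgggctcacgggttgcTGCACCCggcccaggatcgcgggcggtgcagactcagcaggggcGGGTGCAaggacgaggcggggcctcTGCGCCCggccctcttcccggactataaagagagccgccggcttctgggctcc
MT2A: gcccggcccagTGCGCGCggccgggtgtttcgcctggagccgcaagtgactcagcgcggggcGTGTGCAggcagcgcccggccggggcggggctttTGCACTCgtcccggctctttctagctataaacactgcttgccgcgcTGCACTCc
Each window holds 4 matches, and 17.1% of the 35116 windows hold at least 1.

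Lysosomal genes were mostly higher. Of 32 tested, 21 were higher and 7 lower (median difference 0.65), and 15 were higher and 3 lower against WT. This list, the clock list and the cholesterol efflux list were put together after values were seen. GPNMB, a glycoprotein of lysosomes and melanosomes, had the largest difference of all named genes. It went from 7.21 and 7.31 in Ctrl to 10.60 and 10.74 in WT and 11.70 and 11.90 in K26, a difference of 4.54 from Ctrl (SE 0.16, 23.2-fold, adjusted p = 2.54e-13) and of 1.13 from WT (adjusted p = 9.67e-05). TPP1, a lysosomal peptidase, rose from 8.96 and 9.03 to 10.98 and 10.98 (difference 1.99), MCOLN1, a lysosomal calcium channel, by 1.44, and NEU1, a sialidase, by 1.38. TFE3, a transcription factor for lysosomal genes, was higher by 0.79, but not called against untreated sh120. LIPA, the acid lipase, was lower (−1.07), and CTSD, cathepsin D, was not called (difference −0.25, adjusted p = 0.0651).

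Lipid handling genes went both ways within each list. Of 21 genes of fatty acid synthesis and lipid storage, 5 were higher and 9 lower. Of 13 in the cholesterol efflux list, 6 were higher and 4 lower. In sterol synthesis 8 of 16 were lower and 1 higher: SQLE, squalene epoxidase, fell from 10.88 and 10.62 to 9.21 and 9.40 (difference −1.45), and MVD (−1.21), while SC5D, a late enzyme, was higher by 1.39. ABCA1, which exports cholesterol, gave 6.45 and 6.09 in Ctrl, 7.30 and 6.81 in WT and 8.56 and 8.76 in K26 (K26 minus Ctrl 2.39, K26 minus WT 1.6, adjusted p = 1.05e-05). MYLIP, a ligase that degrades the LDL receptor, was higher by 2.18 and CD36, a fatty acid receptor, at least 6.46-fold, while SCARB1, the HDL receptor, was lower (−1.03). FADS1, a fatty acid desaturase, was lower (−2.05) and ACACB at least 2.34-fold, while PDK4 was at least 2.09-fold higher and ANGPTL4 was higher by 1.44.

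The clock list had 8 of 13 genes higher and 0 lower. CIART, a repressor of the clock, rose from 6.42 and 6.48 to 9.15 and 8.82 (difference 2.54, adjusted p = 4.95e-10), and CRY1 from 6.90 and 6.88 to 8.45 and 8.95 (difference 1.82). PER2 was higher by 1.13 and NR1D2 by 1.05, and CLOCK was not called (difference −0.35, adjusted p = 0.157). The sources used here do not give the time of day of harvest.

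**Figure D3:**
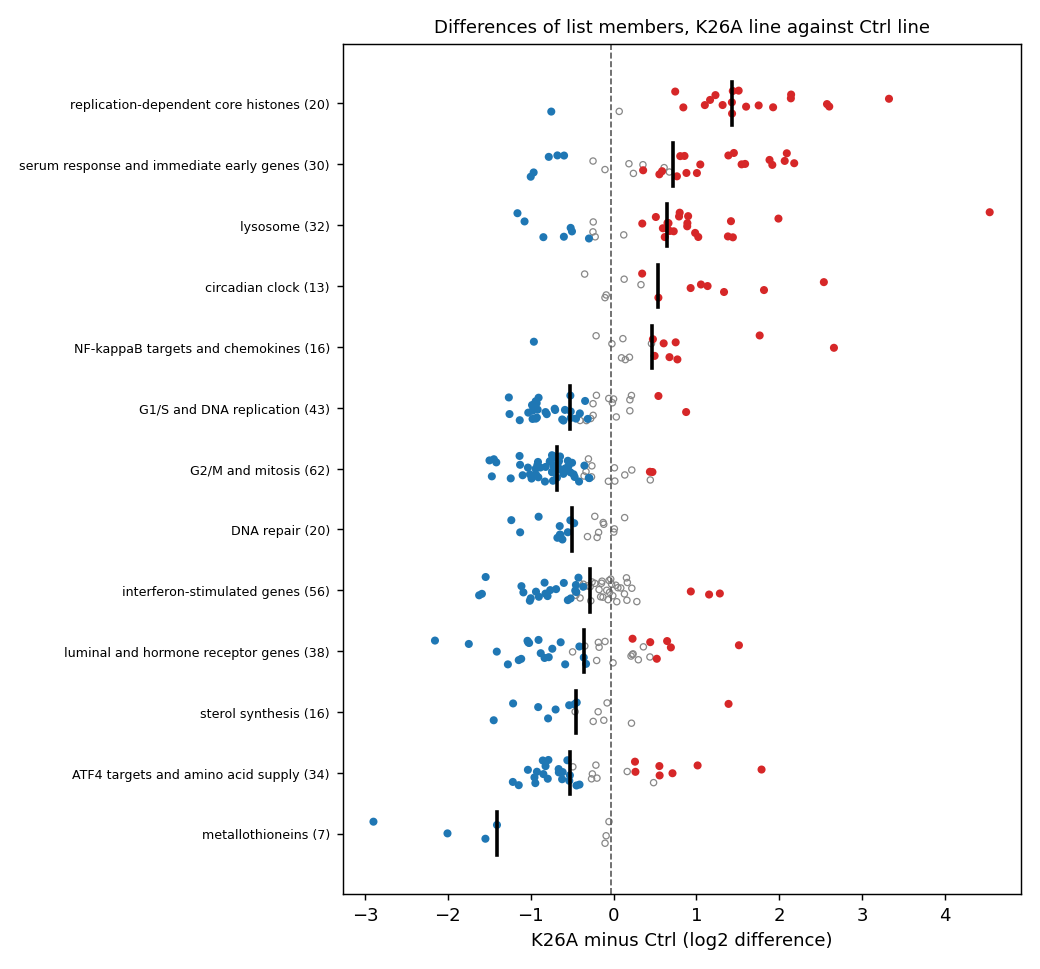
K26 minus Ctrl (log2 difference) of each tested member of 13 gene lists; filled points are called (red higher, blue lower), open points are not, black bars are list medians, and the dashed line is the median of all items, −0.03. Core histones centre on 1.43 and the G2/M list on −0.68; metallothioneins reach −2.90.

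Genes that act on H1.4 K26 were examined as a list of their own. Of 10 tested, 1 was higher and 4 lower. SIRT1, a deacetylase that acts on H1.4 K26, stood at 7.79 and 7.77 in Ctrl, 8.16 and 8.54 in WT and 9.31 and 9.86 in K26. The difference was 1.80 from Ctrl (SE 0.18, adjusted p = 2.35e-07) and 1.23 from WT (adjusted p = 0.000139). The HP1 genes CBX5 and CBX3 were lower (−0.77 and −0.51), and CBX1 was not called (difference 0.35, adjusted p = 0.112). AURKB, the mitotic kinase that phosphorylates the serine next to K26, was lower (−1.13), and KDM4B at least 1.23-fold. The methyltransferase genes EZH2 (difference −0.34, adjusted p = 0.078) and EHMT2 (−0.32, adjusted p = 0.109, with an uncertain probe identifier) were not called against Ctrl. EZH2 was, however, lower than in WT (−0.51, adjusted p = 0.0257) and than in sh225 (−0.46, adjusted p = 0.0187).

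Amino acid supply genes under ATF4, a stress-induced transcription factor, numbered 20 lower and 7 higher among 34 tested (median difference −0.53). PSAT1 and PHGDH, enzymes of serine synthesis, were lower (−0.85 and −0.79), with PHGDH at 11.76 and 11.63 against 12.42 and 12.55. The amino acid transporter SLC38A2 went the other way, from 9.36 and 9.14 to 11.01 and 11.06 (difference 1.79). ATF4 itself differed by 0.26 (adjusted p = 0.0241), and its 2 other probes gave −0.41 to 0.25. ATF4 lost its call in 4 of 13 alternatives, among them without K26 replicate 2 or either Ctrl replicate. Of 17 cytosolic heat shock genes, 8 were higher and 5 lower. HSPA1A and HSPA1B, near-identical stress-inducible chaperone genes whose probes may read each other, were higher by 2.39 and 2.36, and HSP90AB1, a constitutive chaperone, was lower (−0.61).

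Among genes outside these lists, the largest rises included STX19, a syntaxin of vesicle fusion, which was not detected in Ctrl (5.22 and 5.31), stood at 9.22 and 9.37 in K26 and was at least 10.5-fold higher. CYP1A1, the enzyme that the aryl hydrocarbon receptor induces, was not detected in Ctrl (5.18 and 4.90), reached 8.01 and 7.68 in WT and 9.47 and 9.23 in K26, and was at least 10.9-fold higher (adjusted p = 1.05e-11). CREBRF, a regulator of CREB3, went from 7.45 and 7.59 to 10.56 and 10.64 (difference 3.08). SIX4, a homeobox factor, rose by 2.81 and ZHX2 by 2.70, and CRISP3 was at least 5.32-fold higher. VCX2, an X-linked gene normally expressed in testis, was at least 5.37-fold higher, and its near copies VCX, VCX3A and VCX3B were also called, so these 4 may hold a single signal.

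The largest falls held several genes that were not detected in K26. PXDNL, a peroxidasin relative, stood at 7.94 and 8.23 in Ctrl and at 4.52 and 4.48 in K26 and was at least 4.53-fold lower (adjusted p = 1.04e-12). TRIM47, a ubiquitin ligase, went from 10.73 and 10.45 to 7.20 and 6.90 (difference −3.53) and OLFML3, a secreted olfactomedin, from 12.78 and 12.68 to 9.42 and 9.56 (difference −3.24). KIF12 was at least 7.33-fold lower, NLGN1, a synaptic adhesion protein, at least 5.06-fold and ADCY1, an adenylyl cyclase, at least 5.23-fold. For PXDNL, NLGN1, ADCY1 and KIF12 the WT arrays were also low, at 4.66 and 4.66 for PXDNL, and K26 and WT were not called apart. BDNF gave −3.47, with an uncertain probe identifier and 2 other probes at −0.88 to 0.12.

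Genes set apart in K26, with both K26 arrays beyond all 8 other untreated arrays, numbered 1630 above (16.9%) and 1837 below (19%). Beside H4C8 and H2AC8, those farthest above included ACKR3, a scavenging chemokine receptor, which was not detected in Ctrl (4.96 and 5.14), stood at 5.75 and 5.77 in WT and reached 7.63 and 7.69 in K26. It was higher than in WT by 1.90 (adjusted p = 7.54e-06). PPARGC1A, the coactivator that drives mitochondrial genes, went from 4.83 and 4.88 in Ctrl to 6.74 and 6.63 in WT and 8.14 and 8.19 in K26, at least 4.81-fold above Ctrl. MUC20, a membrane mucin, was at least 5.27-fold higher.

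Farthest below was UCP2, a carrier of the inner mitochondrial membrane, at 7.43 and 7.62 in K26 against 10.00 and 9.77 in Ctrl and 9.14 and 9.17 in WT (K26 minus Ctrl −2.36, K26 minus WT −1.63, adjusted p = 2.62e-06). RDM1, an RNA-binding protein linked to recombination, was at 7.25 and 7.06 against 8.80 and 8.89 in Ctrl and 8.66 and 8.72 in WT. KIFC1, a kinesin of the spindle, was lower than Ctrl (−1.57) and than WT (−1.20). LMNB1, lamin B1 of the nuclear envelope, gave 7.32 and 7.38 in Ctrl, 7.20 and 7.31 in WT and 6.06 and 6.00 in K26 (K26 minus Ctrl −1.32, K26 minus WT −1.22, adjusted p = 0.00107). For RDM1 and LMNB1, WT was not called against Ctrl (adjusted p = 0.41 and 0.796), and the called difference was between K26 and each of the other lines.

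**Figure D4:**
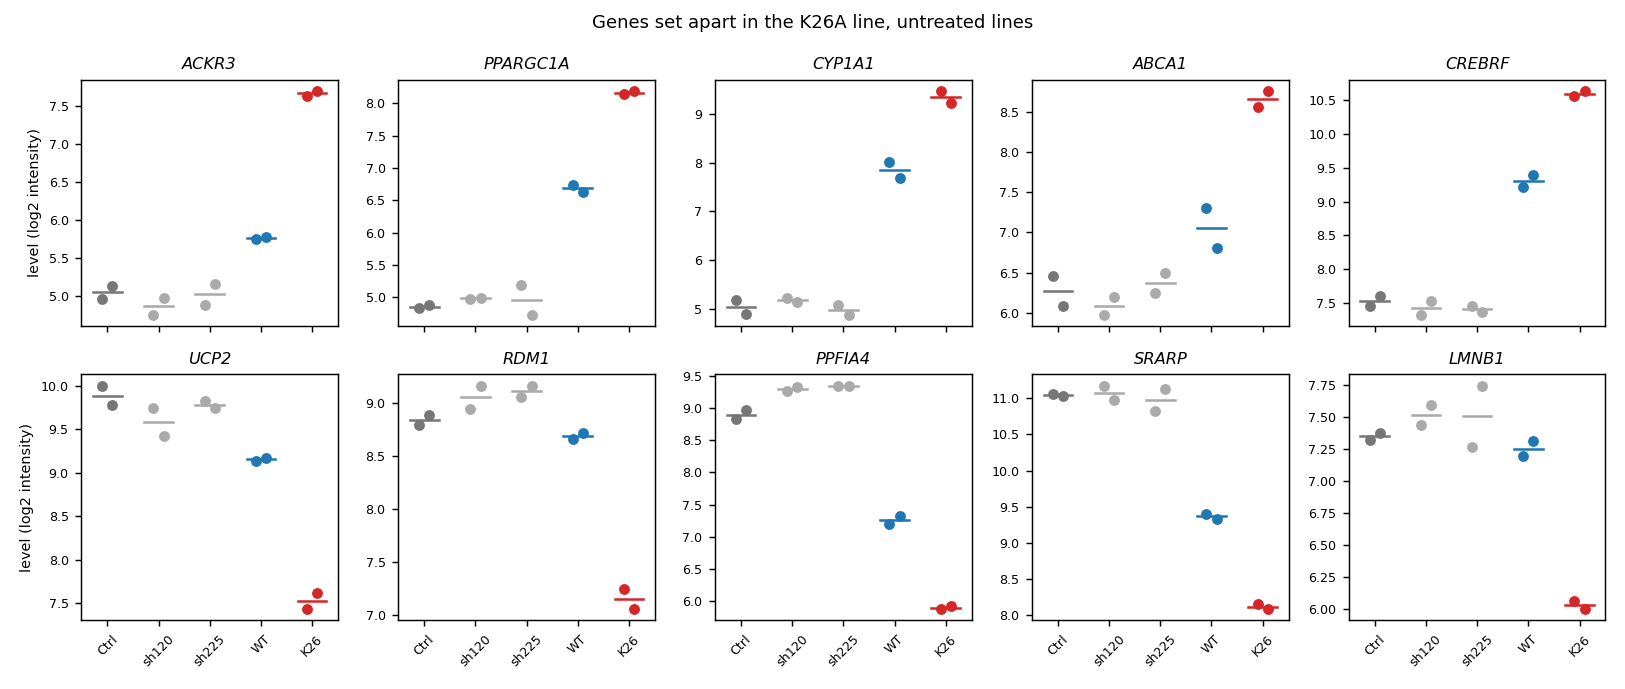
Levels (log2 intensity) of 10 genes set apart in K26, 5 above and 5 below, on each array of the untreated lines, with a point per array and a bar at the group mean of 2 arrays. UCP2 stands at 7.43 and 7.62 in K26, below every other array shown, and ACKR3 at 7.63 and 7.69, above every other.

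Most calls against Ctrl were not called between the overexpression lines. Of the 2333 items higher than in Ctrl, 791 were also higher than in WT, 23 were lower than in WT and 1519 had no call between K26 and WT. Of the 2626 lower items, 990 were also lower than in WT, 21 were higher and 1615 had no call. A missing call does not show that the lines were alike. K26 and WT were called in opposite directions against Ctrl for 25 items, 3 of them higher in K26 and 22 lower.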

How the data were processed

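Biotinylated cRNA was hybridised after cDNA synthesis from 100 ng of RNA (RIN 9.5), per the labels' protocols; GenomeStudio 1.6.0 appears, without a role, in the submitters' processing notes. The scanner table deposited by the authors gives an intensity and a detection p-value per probe, not scaled between arrays. The deposited series matrix, linear intensities of unstated normalization, was an alternative; 471 tested items have a probe identifier that differs between these tables. Probes were named from the platform annotation (23266 with 1 symbol, 1264 with none).

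In R 4.3.3, neqc of limma 3.58.1 corrected the background by normexp (offset 16), applied quantile normalization and took log2. Probes with a detection p below 0.01 on at least 2 of 16 arrays were kept (11258 of 24530), then the brightest per symbol, leaving 9172 genes and 482 unnamed probes. A limma model of group means over 16 arrays (trended eBayes; residual degrees of freedom, 8) gave the contrasts. For a gene detected on no array of a group, the brighter mean was divided by a floor, per array the larger of the dim probe's value and the dimmest signal detected there ("at least N-fold"). In simulated data for K26A against Ctrl on 9654 items, 200 genes were changed. Calls were made for 46 of 50 genes changed by 1 on the log2 scale, 44 of 50 changed by −1 and 21 of 50 changed by 0.5. False calls numbered 10. In the data 51.4% of items were called, so the adjusted threshold differs and these counts do not give the sensitivity of the real comparison.

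Named genes were the H1 genes, the 15 largest rises and falls, up to 4 called members of each list, 10 genes set apart in each direction, and key members of the lists whether called or not; other genes, IFI27 among them, were chosen after their values were seen. The comparison, lists and tests were chosen with earlier results of these data known. Alternatives covered background, scaling, filter, deposited table, probes, fit, replicate block and left-out replicates.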

Additional observations from a re-analysis of the deposited data

Results flagged for a closer look

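Named or listed genes that were called in opposite directions in the overexpression lines numbered 11, each lower than Ctrl in K26 and higher than Ctrl in WT, with 2 arrays per group. A called limma difference K26 minus WT was also required for a gene to enter this set, so that call adds no support. Only the values of this difference are given. Of interferon-stimulated genes, it was −1.76 for MX1, −1.60 for IFIT1, −1.45 for IFITM1 and −2.04 for IFI27. Of glycolysis and hypoxia genes, it was −1.36 for ALDOC, the brain aldolase, −1.01 for PFKP, a phosphofructokinase, and −1.01 for DDIT4, an inhibitor of mTORC1. ALDOC stood at 10.93 and 11.07 in Ctrl, 12.15 and 11.86 in WT and 10.76 and 10.52 in K26. Of replication genes, it was −0.81 for FEN1, the flap endonuclease, and −1.0 for E2F2, an S-phase transcription factor. It was −1.11 for NSDHL, an enzyme of sterol synthesis, and −0.76 for S100A4, a calcium-binding protein. The call of K26 lower than Ctrl was not stable for 5 of the 11, and for IFI27 it did not hold in 5 of 12 alternatives. It was lost under median scaling for S100A4, ALDOC, E2F2 and FEN1, with the authors' series matrix for S100A4 and IFI27, and without K26 replicate 2 or Ctrl replicate 2 for S100A4, ALDOC, E2F2 and IFI27. The highest adjusted p of these alternatives was 0.451 for S100A4, 0.577 for ALDOC, 0.282 for E2F2 and 0.169 for FEN1.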

How the results depend on the processing

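The count of K26 against Ctrl was 4959 and ran from 3680, with a log2 difference of at least 0.5 also required, to 5937 over the alternatives run. Leaving out each replicate in turn gave 4025 to 4220 calls for K26 against Ctrl, 4064 to 4548 for K26 against sh225, 998 to 1520 for K26 against WT (2209 with all arrays) and 1841 to 2493 for WT against Ctrl (3071 with all arrays). For K26 against WT, the count was 998 without K26 replicate 2, 1125 without WT replicate 1 and 1350 without WT replicate 2; for WT against Ctrl it was 1841 without WT replicate 1 and 1969 without Ctrl replicate 1. A group left with 1 array is assumed to vary like the others. Under median scaling the share of calls that were higher moved from 47% to 59.4% for K26 against Ctrl. For WT against Ctrl it moved from 51.2% to 73.5%. The median difference of all items for K26 against Ctrl moved from −0.0289 to 0.0856. Of 3385 values of named genes under 13 alternatives, 3272 kept the side of the threshold, 95 lost the call and 15 gained one. For 3, a called gene changed direction: ITGB4 (0.0302) and PSMB9 (0.157) with the authors' series matrix, both with uncertain identifiers, and IFI27 against untreated sh120 (0.164), an alternative added after the data were seen. Genes that stayed uncalled count as kept even where their sign changed, as for ISG15 (−0.539 to 0.249). Correlations of the deviations of same-numbered replicates ran from −0.362 to 0.319 over 28 pairs of groups, and 9 were above 0.1. These values do not settle whether such replicates share more than a number. With the replicate block K26 against Ctrl had 4966 calls, K26 against sh225 5315, K26 against WT 2178 and WT against Ctrl 3087. List counts under median scaling, no background correction and the series matrix were also added later: core histones had 18 higher under each. The number of arrays, 2 a group, limits the precision, and dim probes near background limit the folds of genes such as H1-4.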

Other observations

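Glycolysis and hypoxia genes had calls in both directions. Of 34 tested, 10 were higher in K26 than in Ctrl (29.4%, against 24.2% over all items) and 13 lower (38.2%, against 27.2%). With median scaling the counts were 12 and 9. Against WT, 3 were higher and 17 lower. NDRG1, a hypoxia-responsive gene, rose from 5.96 and 6.25 to 8.33 and 8.11 (difference 2.11, adjusted p = 1.29e-08 in limma) and EPAS1, which encodes HIF-2 alpha, from 8.41 and 8.42 to 9.90 and 9.90 (difference 1.48). The glycolytic enzymes GAPDH and GPI were lower (−0.70 and −0.89), and GAPDH stood at 11.54 and 11.39 in K26 against 12.36 and 12.42 in WT.

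Genes of motile cilia had 11 lower and 4 higher of 21 tested. HOATZ was at least 3.88-fold lower and not detected in K26, and ROPN1L, a sperm and cilium protein, fell from 8.19 and 8.35 to 6.31 and 5.94 (difference −2.14). DNAH5, an axonemal dynein, was at least 2.19-fold higher, and FOXJ1, the factor that switches on motile cilia genes, was not called (difference 0.18, adjusted p = 0.575). Of 12 S100 genes, 6 were higher and 1 lower; S100A9 went from 9.28 and 9.46 to 10.56 and 10.71 (difference 1.26), and S100A8 was higher than Ctrl by 1.42 but lower than WT (−1.03, adjusted p = 0.000872). Cytosolic ribosomal protein genes had 4 higher and 20 lower of 67, which turned to 18 higher and 7 lower with median scaling.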
